A study of Mus musculus with 6 samples.

Results

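Surface antigens that are used to gate or describe haematopoietic progenitors were followed through the loss of CAF-1 and through the loss of HOXA9 in cultured mouse progenitors. They were the genes Cd34, Cd27, Cd48, Cd93, Cd44, Spn, Cd33, Cd63 and Cd9, chosen by name, and they make up 9 of the 27998 gene columns of the table. All 9 had UMIs in each of the 6 libraries. The mean level over the libraries reached 20 CPM, a unit that scales the UMIs of a gene to an equal total in every library, for 8 of them, and Cd27, with a mean of 14.8 CPM, stayed below that minimum and is given by its values only.

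The cells were granulocyte-macrophage progenitors of the strain labelled C57BI/6, which carried a Lys-GFP reporter and a fusion of HOXA9 with an estrogen receptor domain (iGMPs), and all groups shared these alleles and a medium with stem cell factor. CAF-1 places histones on new DNA, and Chaf1b encodes part of it. In the CAF-1 OFF arm, a clone whose shRNA against Chaf1b is induced by IPTG was kept in estradiol at 150 ng/ml and received IPTG at 500 µM for 48 or 96 h. In the HOXA9 OFF arm, a clone with a control vector was cultured for 48 or 96 h after estradiol was washed out, with no IPTG. Each arm had its own 0 h library in estradiol without IPTG, and single cells were profiled with 10x Chromium 3′ chemistry, in which a unique molecular identifier (UMI) marks each captured transcript. Each arm rests on 1 clone, so that clone and treatment cannot be told apart between the arms, and each group is 1 library. No difference was therefore tested, and the 95% intervals below, Poisson for levels and binomial for folds and shares, cover counting error only.

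CD34 is a sialomucin, a heavily glycosylated protein of immature blood cells, and in the mouse it separates granulocyte-macrophage progenitors from erythroid-committed ones. CD43, the product of Spn, is a related leukocyte sialomucin, and CD44 is the main receptor for the matrix polymer hyaluronan. CD48 is a lipid-anchored member of the SLAM family that binds CD244 and CD2, and its absence is used to isolate mouse haematopoietic stem cells. CD27 is a receptor of the TNF receptor superfamily with CD70 as its ligand, CD93 is a C-type-lectin-like glycoprotein of early progenitors, and CD33 is a sialic acid-binding lectin (siglec) of myeloid cells. CD63 and CD9 are tetraspanins, which organise membrane domains, and CD63 is found in lysosome-related granules.

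In the mouse assembly GRCm38.p6, as annotated by RefSeq, Cd34 lies at chr1:194938821-194961292 and Cd48 at chr1:171681245-171705258. Cd93 lies at chr2:148436651-148443535 and Cd44 at chr2:102811141-102901669. Cd27 lies at chr6:125232620-125237136 and Cd9 at chr6:125460266-125494760, on the same chromosome. Spn lies at chr7:127123637-127145552, Cd33 at chr7:43527399-43537424 and Cd63 at chr10:128896231-128912822. RefSeq promoter windows were at hand for 8 of the 9 genes, all but Cd93. The 250 bases before the start are shown for the 3 antigens that passed the 2-fold size in more than 1 comparison. They are written 5′ to 3′ on the strand of the gene, with matches to the motifs below in capitals.
Cd34, chr1:194938571-194938820, plus strand: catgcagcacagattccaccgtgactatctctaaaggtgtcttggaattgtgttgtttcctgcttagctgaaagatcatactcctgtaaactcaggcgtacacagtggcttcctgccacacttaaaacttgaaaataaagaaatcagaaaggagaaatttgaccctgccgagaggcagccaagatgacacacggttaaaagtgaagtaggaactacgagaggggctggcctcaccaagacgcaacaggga
Cd33, chr7:43533172-43533421, minus strand: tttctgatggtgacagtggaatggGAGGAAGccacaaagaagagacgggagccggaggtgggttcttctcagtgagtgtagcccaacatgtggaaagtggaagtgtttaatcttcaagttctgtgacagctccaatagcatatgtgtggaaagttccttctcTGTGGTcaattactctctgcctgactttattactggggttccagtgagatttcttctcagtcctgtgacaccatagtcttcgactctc
Cd9, chr6:125494761-125495010, minus strand: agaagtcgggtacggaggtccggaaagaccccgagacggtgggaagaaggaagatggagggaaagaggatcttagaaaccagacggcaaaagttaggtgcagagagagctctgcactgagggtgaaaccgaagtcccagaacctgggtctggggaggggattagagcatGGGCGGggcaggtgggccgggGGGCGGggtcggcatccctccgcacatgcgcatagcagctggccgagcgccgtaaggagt

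The following 7 motifs were searched on both strands of these windows, namely CCGGAAG for ETS factors, GAGGAAG for PU.1, TTGCGCAA for C/EBP factors, TGTGGT for RUNX factors, AGATAA for GATA factors, TGATTTA for HOX factors and GGGCGG for Sp and KLF factors. The Cd34 window held none of these 7 strings. The Cd33 window held GAGGAAG at 226 bases and TGTGGT at 88 bases before the start, and this window lies inside the longer gene span given above. The Cd9 window held GGGCGG at 81 and at 60 bases before the start. Of all 32851 promoter windows of that length, 10.6% held GAGGAAG, 14.0% TGTGGT and 32.7% GGGCGG, while CCGGAAG was found in 6.91%, AGATAA in 9.99%, TGATTTA in 2.61% and TTGCGCAA in 0.164%. Among the other members, GAGGAAG was found in the windows of Cd44 and Cd63, TGTGGT in that of Cd48 and AGATAA in that of Cd44. A match describes the letters only.

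The libraries differed in depth and in how many barcodes passed the filters. Between 473 and 1510 cells were kept per library, and their UMIs summed to between 3524285 and 5589486. The median UMI count per cell fell to 3535.5 and 2043.5 at 48 and 96 h of HOXA9 OFF, against 5956 to 8660 in the other 4 libraries. The share of barcodes removed ranged from 0.198% to 66.2%, and was 41.7% and 66.2% in the 0 h libraries. Only 34 barcode sequences occurred in more than 1 library. All 8 genes of a granulocyte-macrophage progenitor list had UMIs in the 0 h libraries. They also had UMIs at 96 h of HOXA9 OFF, down to 1 UMI for Sox4, so that their presence alone cannot check the progenitor label. Kit stood at 82.8 and 80.9 CPM and Fcgr3 at 135 and 138 CPM under CAF-1 OFF and HOXA9 OFF at 0 h. At 96 h of CAF-1 OFF, 1 gene of the list was higher and 0 lower by the size used below, against 5.22% and 0.856% of all genes. At 96 h of HOXA9 OFF, 1 was higher and 6 lower, against 18.1% and 39.8% of all genes. Cd34 is itself on this list and 1 of the 6, so that these counts are not independent of its values. Ly6a, the Sca-1 antigen of stem cells, had 1 UMI in each 0 h library.

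Cd34 was kept when CAF-1 was lost and fell steeply when HOXA9 was lost. In CAF-1 OFF, 756 CPM (730 to 783) were measured at 0 h, then 738 CPM (716 to 761) and finally 707 CPM (685 to 730). The HOXA9 OFF libraries held 660 CPM (636 to 685) before the washout, 67.2 CPM (60.4 to 74.6) after 48 h and 28.4 CPM (23.1 to 34.5) after 96 h, the last resting on 100 UMIs. Both late HOXA9 OFF libraries thus lay far below the other 4, which stood close to each other. The 48 h level was 9.82-fold and the 96 h level 23.3-fold lower than at 0 h under HOXA9 OFF. In CAF-1 OFF, the ratio to 0 h was 0.976 (0.932 to 1.02) at 48 h and 0.936 (0.893 to 0.981) at 96 h. Between the arms at 96 h, Cd34 was 24.9-fold lower under HOXA9 OFF. The order of the levels was CAF-1 OFF at 0, 48 and 96 h, then HOXA9 OFF at 0, 48 and 96 h, and neighbours among the 3 CAF-1 OFF libraries did not differ beyond counting error.

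**Figure D1:**
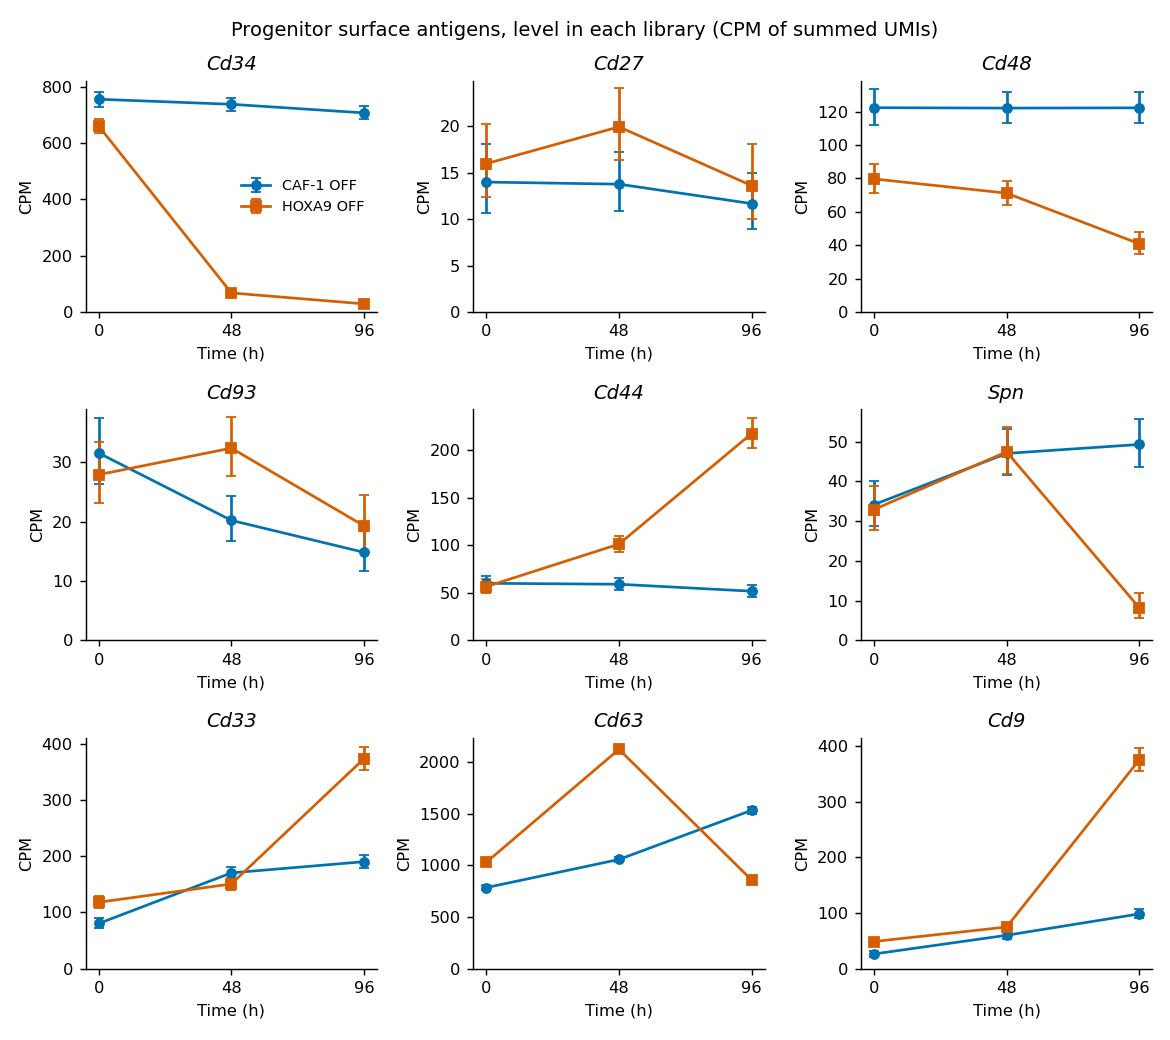
Level of each antigen in CPM (y axis, linear, from 0) against time in hours (x axis), with CAF-1 OFF as circles and HOXA9 OFF as squares, 1 library per point, and bars for exact 95% Poisson intervals. Cd34 falls from 660 to 28.4 CPM under HOXA9 OFF and stays between 707 and 756 CPM under CAF-1 OFF, while Cd44, Cd33 and Cd9 are highest at 96 h of HOXA9 OFF.

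Changes were counted on a log2 scale after adding 10 CPM to both levels, which understates the change of low genes, and a gene was counted when it changed at least 2-fold on that scale. In CAF-1 OFF at 48 h, 0 of the 8 members were counted as higher, where 2.76% of the 4789 genes that reached the minimum level were, and 0 as lower, where 0.0418% were. Cd33 and Cd9 lay just under the size, at log2 ratios of 1.00 and 0.94. After 96 h of CAF-1 OFF, 2 of 8 members were higher, Cd33 and Cd9, against 5.22% of all genes, and 0 were lower, against 0.856%. In HOXA9 OFF at 48 h, 1 of 8 was higher, Cd63, against 13%, and 1 was lower, Cd34, against 19.6%. At 96 h of HOXA9 OFF, 3 of 8 were higher, Cd44, Cd33 and Cd9, against 18.1%, and 2 were lower, Cd34 and Spn, against 39.8%. The median log2 ratio of the 9 members was 0.00, 0.00, 0.33 and -0.26 in these 4 comparisons, where that of all genes was 0.00, -0.08, -0.23 and -0.56. With TMM scaling, the ratios of all genes shifted up by 0.25 at 48 h and by 0.39 at 96 h of HOXA9 OFF, and by 0.19 and 0.45 with median-of-ratios scaling. The share of higher among all genes counted was 39.8% and 31.2% at 48 and 96 h of HOXA9 OFF, and it became 54.6% and 44.0% with TMM and 51.2% and 46.4% with median-of-ratios scaling.

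**Figure D2:**
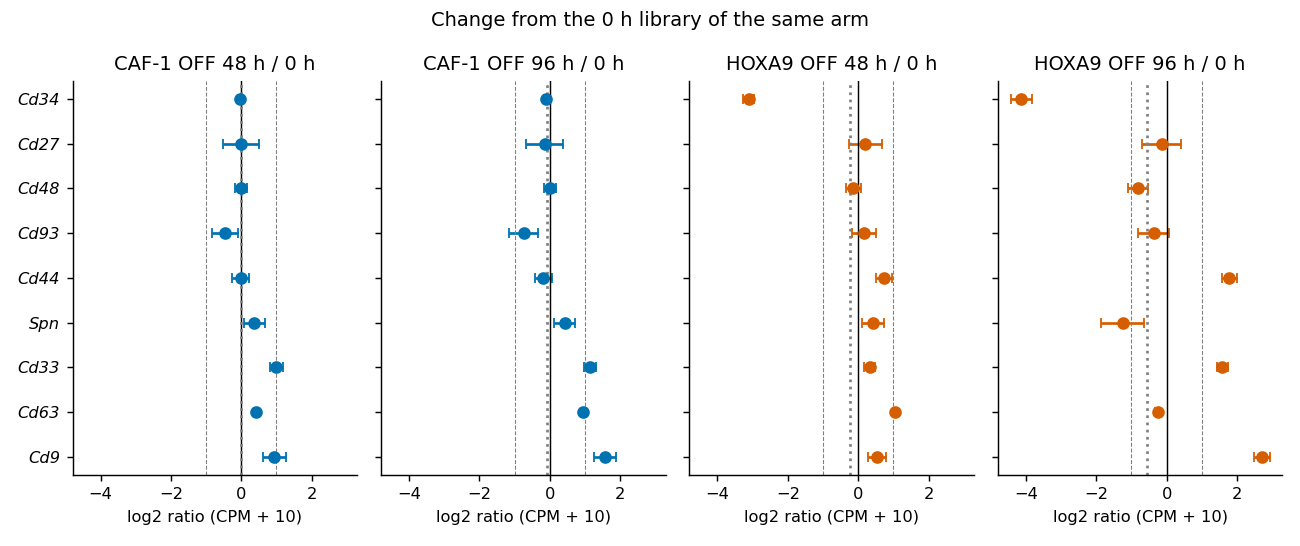
Log2 ratio of each antigen to the 0 h library of its own arm after adding 10 CPM (x axis), 1 panel per later library and 1 row per gene, with bars as wide as the exact 95% counting interval of the fold without that addition. Dashed lines mark the 2-fold size and the dotted line the median of the 4789 genes. Cd34 stands at -3.12 and -4.13 under HOXA9 OFF and at -0.03 and -0.09 under CAF-1 OFF.

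The other sialomucin, Spn, was lower like Cd34 at 96 h of HOXA9 OFF but moved unlike it at 48 h there and under CAF-1 OFF. Its levels at 0, 48 and 96 h of CAF-1 OFF were 34.2, 47.1 and 49.3 CPM. In HOXA9 OFF, it went from 32.9 CPM to 47.5 CPM at 48 h and then to 8.23 CPM at 96 h, the last from 29 UMIs. The levels at 48 h were nearly equal in the arms, at 47.1 and 47.5 CPM with overlapping intervals, and only the last HOXA9 OFF library stood below the rest. There the interval of the ratio to 0 h was 0.161 to 0.375 and the log2 ratio -1.24, which became -0.97 with TMM and -0.92 with median-of-ratios scaling, under the 2-fold size.

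Cd44 changed under HOXA9 OFF only by the size used. Its levels under CAF-1 OFF were 60.0, 59.0 and 51.7 CPM at 0, 48 and 96 h, and neighbours in that order did not differ beyond counting error. In HOXA9 OFF, the level was 56.6 CPM at 0 h, 101 CPM at 48 h and 218 CPM at 96 h. The uninduced libraries overlapped within counting error, and both later HOXA9 OFF libraries lay above all CAF-1 OFF ones. The ratio to 0 h was 1.79 (1.53 to 2.10) at 48 h and 3.85 (3.32 to 4.47) at 96 h. The log2 ratio at 48 h was 0.74, and with TMM scaling it was 1.01 and so past the size.

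Cd48 was flat under CAF-1 OFF, at 122 CPM in each of the 3 libraries, with ratios to 0 h of 0.998 (0.889 to 1.12) and 0.999 (0.889 to 1.12). In HOXA9 OFF, it was 79.7 CPM at 0 h, 71.2 CPM at 48 h and 40.9 CPM at 96 h. All HOXA9 OFF libraries lay below all CAF-1 OFF ones, the uninduced library included, which was 1.54-fold below that of CAF-1 OFF. The log2 ratio at 96 h of HOXA9 OFF was -0.82, and -0.41 with TMM and -0.34 with median-of-ratios scaling, but -1.29 and so past the size when cells were averaged with equal weight. At 48 h it was -0.14, turning to 0.12 with TMM and to 0.07 with median-of-ratios scaling.

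Cd27 was the lowest member, with 48 to 106 UMIs per library and a lowest level of 11.7 CPM, at 96 h of CAF-1 OFF. Neighbours in the order of its 6 levels did not differ beyond counting error, and its ratio to 0 h was 0.834 (0.576 to 1.21) at 96 h of CAF-1 OFF and 0.852 (0.575 to 1.25) at 96 h of HOXA9 OFF. The log2 ratio at 96 h of HOXA9 OFF was -0.14, turning to 0.16 with TMM and to 0.21 with median-of-ratios scaling. Differences of these sizes from 0 h were not detectable at this depth. Between the arms at 48 h, it was 1.45-fold (1.07 to 1.97) higher under HOXA9 OFF.

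Cd93 was lower at both later times of CAF-1 OFF, and under HOXA9 OFF at 96 h only, a direction that turned with median-of-ratios scaling. In CAF-1 OFF, it stood at 31.6 CPM, 20.2 CPM and 14.8 CPM at 0, 48 and 96 h, from 133, 113 and 80 UMIs. In HOXA9 OFF, the levels were 27.9 CPM, 32.4 CPM and 19.3 CPM. The 96 h level under CAF-1 OFF was 2.13-fold below 0 h as a plain ratio of CPM, while the log2 ratio after adding 10 CPM was -0.74 and so not counted. In HOXA9 OFF, the ratio to 0 h was 1.16 (0.912 to 1.48) at 48 h and 0.691 (0.505 to 0.940) at 96 h. The log2 ratio at 96 h was -0.37, -0.03 with TMM, and with median-of-ratios scaling it turned to 0.02.

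Cd33 was higher in both arms. Its levels at 0, 48 and 96 h of CAF-1 OFF were 80.4, 170 and 190 CPM. Those of HOXA9 OFF were 118, 151 and 373 CPM. Each neighbour in the order of the 6 levels differed from the next beyond counting error, with HOXA9 OFF at 96 h at the top and the uninduced CAF-1 OFF library at the bottom. The ratio to 0 h at 96 h was 2.36 (2.09 to 2.68) under CAF-1 OFF and 3.16 (2.85 to 3.51) under HOXA9 OFF. The uninduced libraries themselves differed 1.47-fold (1.28 to 1.69), and against the 0 h library of the other arm the log2 ratio at 96 h of CAF-1 OFF was 0.64 in place of 1.15.

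The 2 tetraspanins differed from each other under HOXA9 OFF. Cd63, the member with the highest level, was at 786 CPM, 1058 CPM and 1534 CPM at 0, 48 and 96 h of CAF-1 OFF, a 1.95-fold (1.88 to 2.03) change that lay just under the size, at a log2 ratio of 0.96, and past it with TMM scaling, at 1.04. In HOXA9 OFF, it went from 1031 CPM to 2124 CPM at 48 h and was at 860 CPM at 96 h. The 48 h level was thus the highest of the 6 libraries, and the log2 ratio at 48 h of 1.04 was 0.97 when cells were averaged with equal weight. At 96 h the log2 ratio was -0.26, turning to 0.22 with TMM and to 0.30 with median-of-ratios scaling.

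Cd9, in contrast, had its highest level at 96 h of HOXA9 OFF. It was at 26.6 CPM, 60.1 CPM and 98.4 CPM under CAF-1 OFF, and at 48.9 CPM, 74.9 CPM and 375 CPM under HOXA9 OFF. All neighbours in the order of these levels differed beyond counting error. The ratio to 0 h at 96 h was 3.70 (3.02 to 4.58) under CAF-1 OFF and 7.66 (6.60 to 8.91) under HOXA9 OFF. Of the members, Cd9 differed most between the uninduced libraries, 1.84-fold (1.46 to 2.34), and against the 0 h library of the other arm the log2 ratio at 96 h of CAF-1 OFF was 0.88 in place of 1.57, under the size.

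Other cell types' markers moved with these changes, and their part in the results was not tested. Of a list of 10 late neutrophil genes, all 10 had UMIs at 96 h of HOXA9 OFF, and their summed level was 29.4 CPM at 0 h, 10460 CPM at 48 h and 144073 CPM at 96 h. In CAF-1 OFF, the same sum was 33.7 CPM, 719 CPM and 1200.1 CPM, with Ltf at 0 UMIs throughout. Most of this 96 h sum came from Mmp8 at 724 CPM and Lcn2 at 428 CPM, while S100a9 had 12 UMIs and Ngp 3 UMIs there. Of 10 mast cell or basophil genes, the sum went from 260 CPM to 4006 CPM at 96 h of CAF-1 OFF. Most of it came from Cpa3 at 2813 CPM and Mcpt8 at 1159 CPM, with Cma1, Tpsb2, Cyp11a1 and Gzmb at 0 UMIs there. Of 10 megakaryocyte genes, the sum went from 45.8 CPM to 2698 CPM, with Gp1bb and Treml1 at 0 UMIs. In HOXA9 OFF, the mast cell or basophil sum went from 807 CPM to 537 and 84.0 CPM, and the megakaryocyte sum from 36.3 CPM to 76.8 and 17.6 CPM. The 8 eosinophil genes summed to 1470 CPM at 0 h, 19278 CPM at 48 h and 3264 CPM at 96 h of HOXA9 OFF, and to 217, 460 and 1242 CPM under CAF-1 OFF. Most of these sums came from Prg2 and Prg3. From 0 to 96 h of HOXA9 OFF, Prg2 went from 876 to 3021 CPM, while Prg3 went from 593 to 149 CPM. At 96 h of CAF-1 OFF, Prg2 was at 879 CPM and Prg3 at 362 CPM, with Epx, Ear1, Ear2 and Ear6 at 0 UMIs. The 6 early granulocyte genes summed to 6452, 9053 and 12997 CPM under CAF-1 OFF and to 5584, 5612 and 193 CPM under HOXA9 OFF. At 48 h there, Elane went from 48.2 to 512 CPM, Ms4a3 from 64.9 to 934 CPM and Fcnb from 3.82 to 354 CPM. Ctsg went from 3309 to 833 CPM, so that the nearly equal sums hid opposite moves. Mpo and Prtn3 changed less than 2-fold. At 96 h of HOXA9 OFF, only Fcnb of the 6 was still higher than at 0 h, at 114 CPM.

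Shares of cells were compared after every cell had been thinned to 1300 UMIs, and between 1 and 134 shallower cells per library were left out. Cd34 was then found in 63.7% (59.8 to 67.4) of 633 cells at 0 h, 62.0% (58.7 to 65.1) of 907 at 48 h and 56.4% (53.1 to 59.7) of 902 at 96 h of CAF-1 OFF. The HOXA9 OFF libraries had it in 54.4% (49.8 to 59.0) of 472 cells, then in 7.70% (6.35 to 9.24) of 1376 and 3.13% (2.27 to 4.19) of 1376. Without thinning, the shares were 97.1%, 93.4% and 92.8% under CAF-1 OFF and 97.7%, 18.7% and 6.16% under HOXA9 OFF. So nearly all cells of the 4 other libraries had a Cd34 UMI at full depth. At 96 h of HOXA9 OFF, cells rich in transcripts of late neutrophils should lack CD34. A Cd34 UMI was found in 2.94% of 1192 such thinned cells, against 3.13% of all 1376 cells, of which they are the greater part. The 135 thinned cells that passed none of the marker cuts given below had one in 5.19%, at a median depth of 3251.5 UMIs. The part of free RNA in these shares was not tested, and shares at that level are not read as expression. The 7 genes of a list not expressed in blood cells were found in 0 thinned cells of any library, which allows a share of up to 0.218% in the libraries of 1376 cells and up to 0.636% in the smallest.

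**Figure D3:**
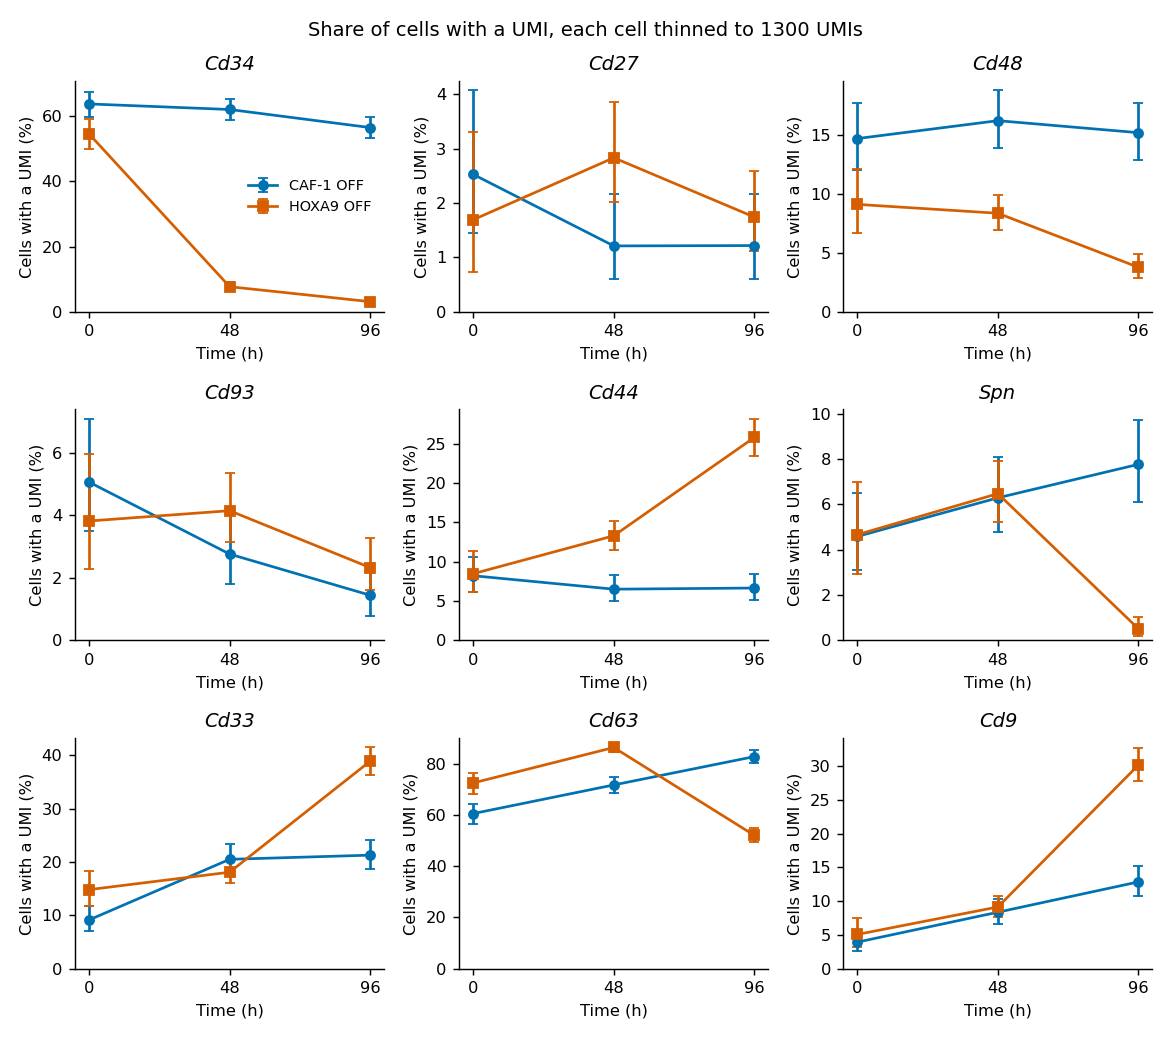
Share of cells with a UMI of each antigen in percent (y axis, from 0) against time in hours (x axis), after each cell was thinned to 1300 UMIs, with CAF-1 OFF as circles, HOXA9 OFF as squares and bars for exact 95% binomial intervals. Cd63 is found in 86.3% of cells at 48 h of HOXA9 OFF and in 52.0% at 96 h, while Cd34 falls to 3.13%.

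Shares of further antigens follow. Some pairs of libraries stood in another order by share than by CPM, for Cd63, Cd44, Cd93, Cd27, Cd48 and Spn, and no order is read from the share in such pairs. Cd63 was found in 60.5%, 71.7% and 82.7% of thinned cells at 0, 48 and 96 h of CAF-1 OFF, and in 72.5%, 86.3% and 52.0% under HOXA9 OFF. Cd33 went from 9.16% to 21.3% at 96 h of CAF-1 OFF and from 14.8% to 38.9% at 96 h of HOXA9 OFF. Cd9 went from 3.95% to 12.9% and from 5.08% to 30.2%, and Cd44 from 8.21% to 6.65% and from 8.47% to 25.8%. Cd48 was found in 14.7% and 15.2% of cells at 0 and 96 h of CAF-1 OFF and in 9.11% and 3.78% under HOXA9 OFF. Spn was found in 0.509% (0.205 to 1.05) of cells at 96 h of HOXA9 OFF, 7 cells in all. Without thinning, the range over the libraries was 63.5% to 99.6% for Cd63, 35.5% to 61.6% for Cd33, 14.1% to 40.5% for Cd9, 25.1% to 39.3% for Cd44, 7.02% to 52.7% for Cd48 and 1.72% to 24.8% for Spn. A thinned cell held UMIs of 1.72 to 2.06 of the 9 antigens on average under CAF-1 OFF and of 1.56 to 1.75 under HOXA9 OFF.

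The antigens also varied among cells of 1 library. Cells were grouped by the share of their UMIs from marker lists that hold none of the 9 genes, at least 1% for the eosinophil list, otherwise at least 1% for the late neutrophil list, otherwise at least 0.5% for the early granulocyte list. These groups are ranges of a score and not cell types. At 48 h of HOXA9 OFF, 243 cells passed the eosinophil cut, 348 the late neutrophil cut, 346 the early granulocyte cut and 467 none, and 31, 96 and 175 cells of that library lay within 25% of the respective cuts. In those 243 cells, a median of 10.1% of UMIs came from the eosinophil list and 0.04% from the late neutrophil list.

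Cd63 and Cd9 were highest in the eosinophil-list cells at 48 h of HOXA9 OFF. Cd63 reached 3567 CPM there, against 1844 CPM in the early granulocyte group, 1852 CPM in the late neutrophil group and 1802 CPM in the remaining cells. Cd9 reached 150 CPM there, against 39.9 CPM, 68.6 CPM and 74.8 CPM in the same order. For Cd33 the order differed, with 89.2 CPM in the eosinophil-list cells and 203 CPM in the cells that passed no cut. Cd34 was low in all 4 groups, at 92.5 CPM in the early granulocyte, 40.3 CPM in the late neutrophil, 33.4 CPM in the eosinophil and 77.3 CPM in the remaining cells. The ratio of the eosinophil to the early granulocyte group was 1.93 (1.84 to 2.03) for Cd63, 3.77 (2.80 to 5.12) for Cd9 and 0.362 (0.236 to 0.537) for Cd34, with intervals from counting error within a library.

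At 96 h of HOXA9 OFF, 1311 of the 1510 cells passed the late neutrophil cut, 51 the eosinophil cut and 146 none, and the early granulocyte group held too few cells to be described. In that library, 24 cells lay within 25% of the eosinophil cut, counted on both sides of it. Cd33 was at 436 CPM in the late neutrophil group, against 70.2 CPM and 138 CPM in the eosinophil group and the remaining cells. Cd9 was lowest in the late neutrophil group, with 277 CPM there, 753 CPM in the eosinophil group and 806 CPM in the remaining cells, and the last 2 did not differ beyond counting error. Cd48 was at 12.1 CPM in the late neutrophil group and at 195 CPM in the remaining cells, a 16.2-fold difference (10.9 to 24.7), and Cd93 was at 10.3 CPM and 65.1 CPM, a 6.33-fold difference (3.75 to 10.8). The remaining 146 cells had Csf1r, the receptor for macrophage colony-stimulating factor, at 314 CPM, against 74.8 CPM in the late neutrophil group. Cd34, by contrast, did not differ between these groups beyond counting error, at 26.6 CPM, 44.7 CPM and 32.6 CPM.

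**Figure D4:**
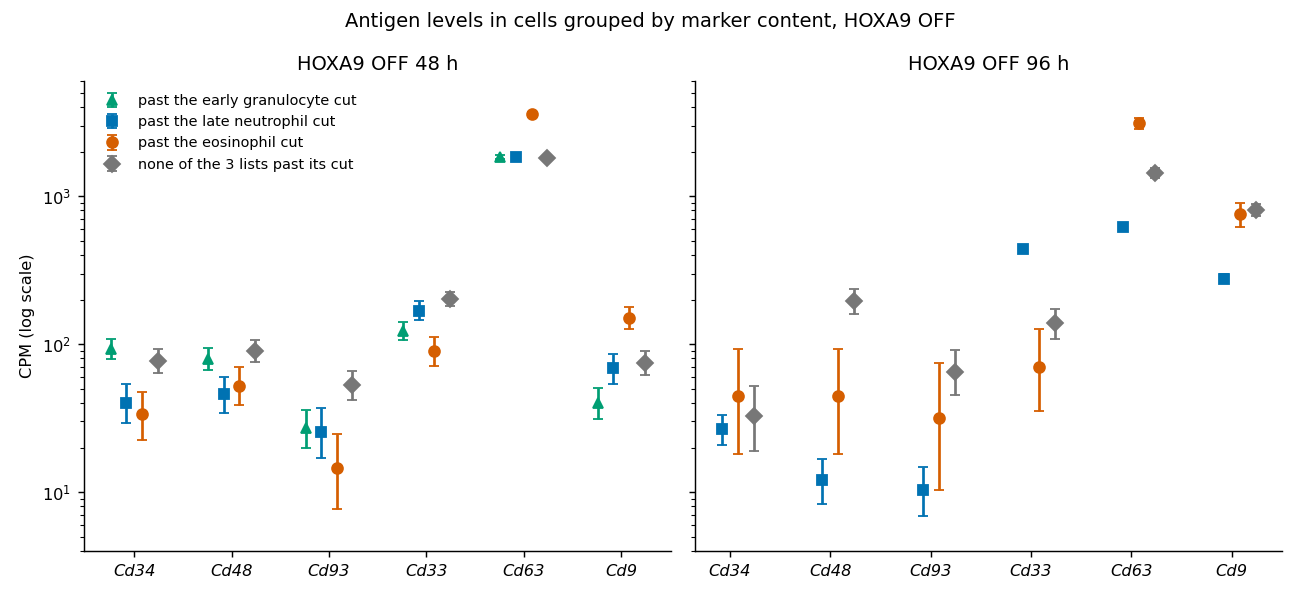
Level of 6 antigens in CPM (y axis, log scale) in cells grouped by their content of marker transcripts at 48 h (left) and 96 h (right) of HOXA9 OFF, with bars for exact 95% Poisson intervals. Cd63 is highest in the eosinophil-list cells at both times, at 3567 and 3106 CPM, and Cd48 and Cd93 are lowest in the late neutrophil group at 96 h. For Cd93, the eosinophil group there rests on 5 UMIs and does not differ from the late neutrophil group beyond counting error.

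Among uninduced cells, Cd9 varied with the share of UMIs from the early granulocyte list. In the CAF-1 OFF 0 h library, 386 cells passed the early granulocyte cut and had Cd9 at 13.9 CPM, against 47.4 CPM in the 256 cells that passed none, a 3.41-fold difference (2.27 to 5.22). The HOXA9 OFF 0 h library showed the same direction, at 36.5 CPM in 248 cells and 65.1 CPM in 212 cells, a 1.78-fold difference (1.33 to 2.39). Many cells lay near this cut, 241 and 183 within 25% of it. Cd34 differed less between these groups, 1.18-fold and 1.15-fold, at 711 and 835 CPM under CAF-1 OFF and at 624 and 719 CPM under HOXA9 OFF. After 96 h of CAF-1 OFF, 868 of 911 cells passed the early granulocyte cut with Cd34 still at 708 CPM. The 30 cells that passed the eosinophil cut had Cd34 at 408 CPM and Cd63 at 2684 CPM. In that library, 14 cells lay within 25% of the eosinophil cut, counted on both sides of it.

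Cd34 transcripts were found in the same cells as transcripts of other lineages under CAF-1 OFF. At 96 h, 752 of 902 thinned cells had a UMI of Pf4 or Itga2b, genes of megakaryocytes, and 57.0% (53.4 to 60.6) of them had a Cd34 UMI, against 53.3% (45.0 to 61.5) of the 150 cells without. Of the 839 cells with a UMI of Cpa3 or Mcpt8, genes of mast cells and basophils, 58.0% (54.6 to 61.4) had a Cd34 UMI, against 34.9% (23.3 to 48.0) of the 63 cells without. Of the 588 cells with a UMI of the late neutrophil list, 53.4% (49.3 to 57.5) had a Cd34 UMI, against 62.1% (56.5 to 67.5) of 314 without. Most UMIs of that list in this library were of Mmp8 and Lcn2. At 48 h of HOXA9 OFF, 6.12% (3.20 to 10.5) of 196 cells with a Cpa3 or Mcpt8 UMI had a Cd34 UMI, and Cd9 was found in 23.0% (17.3 to 29.5) of these 196 cells and in 6.86% (5.49 to 8.46) of the 1180 without. Free RNA in droplets can add to such shares, and its part was not tested.

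Relatives and partners of the antigens were counted in full from lists. Of 13 other tetraspanins, 11 reached the minimum level, and 0 were at least 2-fold higher or lower under CAF-1 OFF at 48 or 96 h. Of all genes, 2.76% and 5.22% were higher there at 48 and 96 h, and 0.0418% and 0.856% lower. In HOXA9 OFF, 2 of these tetraspanins were higher and 3 lower at 48 h, against 13% and 19.6% of all genes. At 96 h, 3 were higher and 6 lower, against 18.1% and 39.8% of all genes. Cd82 went from 12.4 CPM at 0 h to 41.8 and 116 CPM, and Cd37 from 62.8 CPM to 164 and 282 CPM. Tspan3 went from 54.4 CPM to 11.7 and 1.42 CPM, and Tspan4 from 86.2 CPM to 13.7 and 6.53 CPM. Tspan13, Tspan31, Tspan32 and Cd81 were also lower at 96 h, the last from 271 CPM to 56.5 CPM, and Cd53 was higher, from 274 CPM to 584 CPM. The tetraspanins thus did not share a direction under HOXA9 OFF, Cd9 and Cd63 included, and Tspan33 had 0 UMIs in all libraries.

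Of 7 other sialomucins, 2 reached the minimum level, and Selplg, the selectin ligand PSGL-1, was counted as higher, from 56.6 CPM to 189 and 368 CPM under HOXA9 OFF. Cd24a, Podxl and Emcn had 0 UMIs in all libraries. Of 9 SLAM-family genes and CD48 partners, only Cd84 reached the minimum level. It was higher in both arms, from 4.75 CPM to 22.2 and 47.3 CPM under CAF-1 OFF and from 11.9 CPM to 79.1 and 184 CPM under HOXA9 OFF. The CD48 partner Cd2 had 0 UMIs, and the other partner, Cd244, stood at 2.82 to 17.1 CPM. Of 7 other siglecs, only Siglecf, a siglec of eosinophils, reached the minimum level, and under HOXA9 OFF it went from 11.7 CPM to 61.2 and 37.5 CPM. Siglec15 had 0 UMIs in all libraries.

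Of a list of 9 genes related to CD44, CD43 or hyaluronan, 7 reached the minimum level. Msn, which links CD44 to the cytoskeleton, went from 73.7 CPM to 138 and 223 CPM under HOXA9 OFF, while its relative Rdx went from 149 CPM to 71.4 and 54.5 CPM. Hmmr, a hyaluronan receptor of dividing cells, went from 213 UMIs to 106 UMIs and 1 UMI. Spp1, which encodes the CD44 ligand osteopontin, was higher in both arms, from 9.25 CPM to 38.8 and 29.8 CPM under CAF-1 OFF and from 16.2 CPM to 70.8 and 93.6 CPM under HOXA9 OFF. At 48 h of HOXA9 OFF, Ezr was higher, from 63.7 CPM to 139 CPM, and Lgals9, a CD44-binding lectin, lower, from 257 CPM to 77.6 CPM. Has2 had 0 UMIs. The CD27 ligand Cd70 had 0 UMIs in all libraries, and Siva1, a CD27-binding protein, went from 293 CPM to 189 and 82.6 CPM under HOXA9 OFF. Of the 3 relatives of CD93, 0 reached the minimum level, and Clec14a had 0 UMIs.

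Of 12 other antigens of stem and progenitor gates, 7 reached the minimum level. At 96 h of CAF-1 OFF, 4 of the 7 were higher and 0 lower, against 5.22% and 0.856% of all genes. At 96 h of HOXA9 OFF, 3 were higher and 3 lower, against 18.1% and 39.8% of all genes. Kit, the receptor for stem cell factor, went from 80.9 CPM to 9.98 and 1.13 CPM under HOXA9 OFF and from 82.8 CPM to 73.9 and 55.6 CPM under CAF-1 OFF. Flt3, a receptor of early progenitors, went from 77.3 CPM to 1.88 and 3.97 CPM under HOXA9 OFF and from 99.4 CPM to 99.5 and 63.0 CPM under CAF-1 OFF. Both thus stood, like Cd34, low in the 2 late HOXA9 OFF libraries. Fcgr3, the low-affinity antibody receptor of the progenitor gate, was higher in both arms, from 135 CPM to 369 CPM at 96 h of CAF-1 OFF and from 138 CPM to 1007 CPM at 96 h of HOXA9 OFF. Fcgr2b went from 27.0 CPM to 212 CPM and from 24.1 CPM to 82.3 CPM. Itga2b went from 3.56 CPM to 73.0 CPM at 96 h of CAF-1 OFF and from 5.97 CPM to 28.1 CPM at 48 h of HOXA9 OFF, and Csf1r from 0 UMIs to 57.6 and 114 CPM under HOXA9 OFF. Thy1 went from 9.49 CPM to 36.0 CPM at 96 h of CAF-1 OFF, and from 40.8 CPM to 0 UMIs at 48 and 96 h of HOXA9 OFF, the uninduced libraries differing in it.

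The genes with the profile most like that of a member were found by the root mean square difference of centred log2 levels over the 6 libraries. For Cd34 they were Nop58, 2310075C17Rik and Prdx4, with differences of 0.21, 0.23 and 0.26. Nop58 stood at 294, 236 and 186 CPM under CAF-1 OFF and at 249, 22.4 and 2.27 CPM under HOXA9 OFF. For Cd44 the nearest was Actb, with a difference of 0.05, and for Cd48 it was Slbp, with 0.09. For Cd93 and Spn the nearest were Afg3l1 and Bet1, with 0.09 and 0.07. For Cd33 and Cd9 they were Nfil3 and Isg20, with 0.13 and 0.17. These values describe 6 points that share their libraries and depths.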

How the data were processed

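UMI counts of 6 single-cell libraries of mouse iGMPs were examined, with 1 library per group taken from the descriptions of the submitters. The authors sorted live cells, aligned reads to GRCm38 with Cell Ranger and deposited whole-number UMI counts per gene and barcode. The submitters' processing notes name Cell Ranger 3.0.1, Scanpy 1.4.6, Seurat 3.0.1 and mm10.

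A barcode was kept when it had between 200 and 6000 detected genes and the 13 mitochondrial genes took no more than 10% of its UMIs, which left 5872 of 7821 barcodes. Scrublet (scanpy 1.11.5) called 125 of these cells as doublets, which were left in. UMIs were summed per library and divided by its total to give CPM. Log2 ratios were taken after adding 10 CPM, folds from CPM without it. Counts of changed genes used a mean of at least 20 CPM and a 2-fold size. Intervals were exact 95% Poisson or Clopper-Pearson intervals, and PCR duplicates are collapsed by the UMI. A share of 0 cells is given with the limit that 3 cells of the total allow. With 1 library per group no test was possible. Scripts used Python 3.11.15, numpy 2.4.6, scipy 1.17.1 and, for TMM factors, edgeR 4.0.16 in R 4.3.3, and were tested on simulated counts, in which they recovered nearly all 4-fold changes.

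The members and lists were chosen with earlier results of these data known. All 9 members are named. Other genes come from lists of relatives, partners and markers, the relatives and partners counted in full and named where at least 2-fold changed or at 0 UMIs, and from the 3 nearest profiles of each member, those of Cd63 not being reported here. Alternatives changed the pseudocount, the scaling, the size, the minimum level, the filter on cells, doublets, the weighting of cells, the reference library and the thinning. Positions and promoter sequences are from RefSeq tables of GRCm38.p6.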

Additional observations from a re-analysis of the deposited data

Results flagged for a closer look

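The members were searched, and those related genes that reached the minimum level and changed at least 2-fold. In 5 of these genes, both later libraries lay above 0 h in 1 arm and below it in the other. The rule was not applied to all genes, so that nothing is read from the size of this count. Procr and Eng, given at the end, also did so but did not reach the minimum level. None of these differences was tested, since each group is 1 library. Cd44 had log2 ratios to 0 h of -0.02 and -0.18 under CAF-1 OFF and of 0.74 and 1.77 under HOXA9 OFF, a difference between the arms of 1.96 at 96 h, but its 2 ratios under CAF-1 OFF lay within counting error. Tspan13, a tetraspanin, had ratios of 0.83 and 0.81 under CAF-1 OFF and of -1.61 and -1.41 under HOXA9 OFF, a difference of -2.22 at 96 h. Thy1 had 1.23 and 1.24 under CAF-1 OFF and -2.35 at both times under HOXA9 OFF, where it had 0 UMIs, so that the difference of -3.58 depends on the added 10 CPM. Hmmr and Siva1 differed by -2.66 and -1.80, but their ratios under CAF-1 OFF, between 0.05 and 0.10, also lay within counting error. Of the 5 genes, only Tspan13 and Thy1 thus moved beyond counting error in both arms, each against its own 0 h library. For Thy1, the levels of 35.8 and 36.0 CPM at 48 and 96 h of CAF-1 OFF stayed below the 40.8 CPM of the uninduced HOXA9 OFF library. Its rise under CAF-1 OFF therefore depends on which 0 h library is used.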

How the results depend on the processing

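No replicate could be left out, and no paired analysis was possible because each group is 1 library and no test was run. The cause of the shifts below was not tested. Of 36 log2 ratios of members to 0 h, 14 moved beyond their counting interval with TMM, 10 with median-of-ratios scaling, 19 against the 0 h library of the other arm and 0 without called doublets. No called ratio changed sign.

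Among the members, 0 were higher at 48 h of CAF-1 OFF, but 2 with 1 CPM added or a 1.5-fold size and 1 with equal weight for cells. At 96 h of CAF-1 OFF, 2 were higher, but 0 with 50 CPM added, a 4-fold size or the other 0 h library. With TMM or a 1.5-fold size, 3 were higher at that time. In the same comparison 0 were lower, but 1 with 1 CPM added or a 1.5-fold size. At 48 h of HOXA9 OFF, 1 was higher, but 2 with TMM, the other 0 h library or a 1.5-fold size, and 0 with equal weight for cells or a 4-fold size. At 96 h of HOXA9 OFF, 3 were higher and 2 lower, but 1 higher at a 4-fold size. With TMM, median-of-ratios scaling, 50 CPM added or a 4-fold size, 1 was lower. With equal weight for cells, the other 0 h library or a 1.5-fold size, 3 were lower. The same held without mitochondrial and ribosomal protein genes in the total.

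Over all genes, 132 were higher and 2 lower at 48 h of CAF-1 OFF. These became 260 and 8 with 1 CPM added, 34 and 1 with 50 CPM, 339 and 61 at 1.5-fold, and 22 and 1 at 4-fold, with 1 lower under TMM and 4 lower without the minimum level. At 96 h, 250 and 41 became 425 and 93, 94 and 7, 561 and 421, and 60 and 1 in the same order, with 23 lower under TMM. At 48 h of HOXA9 OFF, 621 and 940 became 290 and 352 with 50 CPM added, 981 and 1678 at 1.5-fold, and 204 and 152 at 4-fold. At 96 h, 865 and 1906 became 556 and 992 with 50 CPM added and 412 and 786 at 4-fold, with 1391 higher without the minimum level.

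The share of cells with Cd34 depended on depth. With 2 UMIs required, it was 25.4%, 26.4% and 23.7% under CAF-1 OFF and 17.4%, 0.654% and 0% under HOXA9 OFF. Thinned to 2600 UMIs, it was 83.8%, 81.4% and 79.0%, then 78.6%, 13.4% and 8.92%. Without thinning, it was 97.1%, 93.4% and 92.8%, then 97.7%, 18.7% and 6.16%. Without the filter on cells, the thinned share at 48 h of CAF-1 OFF was 58.2%.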

Other observations

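Some genes of the lists stood out in some libraries and belong to no comparison above. They were chosen after their values were seen. Ly6a had 80 UMIs at 96 h of HOXA9 OFF (22.7 CPM) and 1 to 5 UMIs in each of the other 5 libraries. Siglece had 2 UMIs at 0 h of CAF-1 OFF and 0 UMIs at 0 h of HOXA9 OFF, and reached 27.9 CPM at 48 h and 74.6 CPM at 96 h of HOXA9 OFF. Procr, the receptor for protein C that also marks stem cells, went from 4.75 CPM to 32.9 and 45.4 CPM under CAF-1 OFF and from 4.53 CPM to 2.07 CPM and 0 UMIs under HOXA9 OFF. Eng, an antigen of erythroid progenitors, went from 1.19 CPM to 9.84 and 21.9 CPM under CAF-1 OFF and from 1 UMI to 0 UMIs at both later times under HOXA9 OFF.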
